A study of Homo sapiens with 18 samples.

Results

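The 34 genes described here encode the adhesion, plaque and polarity proteins of the 3 belt and spot junctions of an epithelial sheet. They were chosen by symbol, with earlier results of these data known, from a table of 38055 genes, and all 34 were found there. They comprise 7 adherens junction genes, 4 genes of the occludin family and JAM-A, 7 claudins, the claudin partner EPCAM, 3 tight junction plaque genes, 3 apical polarity genes and 9 desmosome genes. The cells were HCT116, a human colorectal carcinoma line labelled epithelial and of wild-type (WT) genotype, and the labels give no treatment beyond growth to different densities. Whole transcriptome RNAseq was analysed from 3 libraries of day 3 after seeding, at 50% confluency, and 3 libraries of day 5, at 250% confluency, each set labelled as biological replicates 1 to 3. The comparison of these days addresses how junction genes were expressed as the cells became crowded. Days in culture and cell density rose together in this design and cannot be told apart. Day 7 values of whole transcriptome RNAseq were not analysed here.

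Adherens junctions join neighbouring epithelial cells through cadherins, whose tails bind catenins and, through them, the actin belt. Tight junctions lie above them and seal the space between cells: claudins and occludin cross the membrane, and ZO proteins hold them on the cytoplasmic side. Desmosomes are spot junctions in which desmogleins and desmocollins are coupled to keratin filaments through plakoglobin, plakophilins and desmoplakin. The Par and Crumbs proteins mark the apical side and place the tight junction. Loss of E-cadherin at the transcript level is a known feature of epithelial to mesenchymal transition, in which repressors such as ZEB1 and ZEB2 bind E-box sequences in the promoters of epithelial genes.

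The libraries held between 27470978 and 56689369 reads assigned to genes, recovered from the deposited normalized values, with day 3 replicate 3 the shallowest and day 3 replicate 2 the deepest. Across 20129 genes tested with limma, 11450 passed an adjusted p of 0.05, which is 56.9% of those tested, with 29.3% higher and 27.6% lower on day 5. A normalised read count here is the deposited value per gene and library, fold changes are on the log2(value + 1) scale, and the labels do not say whether the biological replicates were separate cultures, so p-values measure only the spread between these libraries. The labelled cell type was checked against marker genes. Of 7 epithelial markers, 6 could be tested, with day 3 means from 226 (CDX2) to 19250 (KRT8), and VIL1 held 1 to 5 reads per library. Of these 6, 5 rose and EPCAM did not pass. CDH1 and EPCAM are also members, and KRT8, KRT18, KRT19 and CDX2 are in the related lists. The rises are therefore not independent of the junction results. Of the other cell types checked, 3 immune markers, the endothelial CDH5 and the mesenchymal DCN and PDGFRB held 0 to 11 reads per library. COL1A2 had means of 19.9 and 15.5 and was not called, and the endothelial VWF, with means of 14.1 and 32.1 and overlapping days, was called higher by 1.14 log2 units (SE 0.37, limma adjusted p = 0.0414). COL1A1, a mesenchymal collagen gene, rose by 1.12 on the log2 scale (limma adjusted p = 0.000289), while VIM, the mesenchymal intermediate filament vimentin, differed by -0.10 log2 units (SE 0.15, limma adjusted p = 0.608). The part of these transcripts in the junction gene results was not tested.

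Of the 34 junction genes, 32 had enough reads to be tested and 26 of these rose from day 3 to day 5, against 29.3% of all genes tested. None fell by limma (0 of 32, and 0 also at an unadjusted p under 0.05, with edgeR and with DESeq2), where 27.6% of all genes did. The median log2 fold change of the 32 was 0.86, a fold of 1.82, beside a median of 0.01 over all genes tested. At least a 2-fold rise was found for 11 members, while 10.2% of all genes were called and at least 2-fold higher. In 28 of the 32, all day 5 libraries lay above all day 3 libraries, a separation found for 33.4% of all genes, and in the other 4 the days overlapped. By junction type, 7 of 7 adherens junction genes and 9 of 14 tight junction genes tested rose, the latter counted with EPCAM. So did 3 of 3 polarity genes and 7 of 8 desmosome genes tested. Because the members were chosen with earlier results of these data known, these counts describe the list and are not a test of it. In bulk RNA, a change in the share of cells that express a gene and a change in RNA per cell cannot be told apart.

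**Figure D1:**
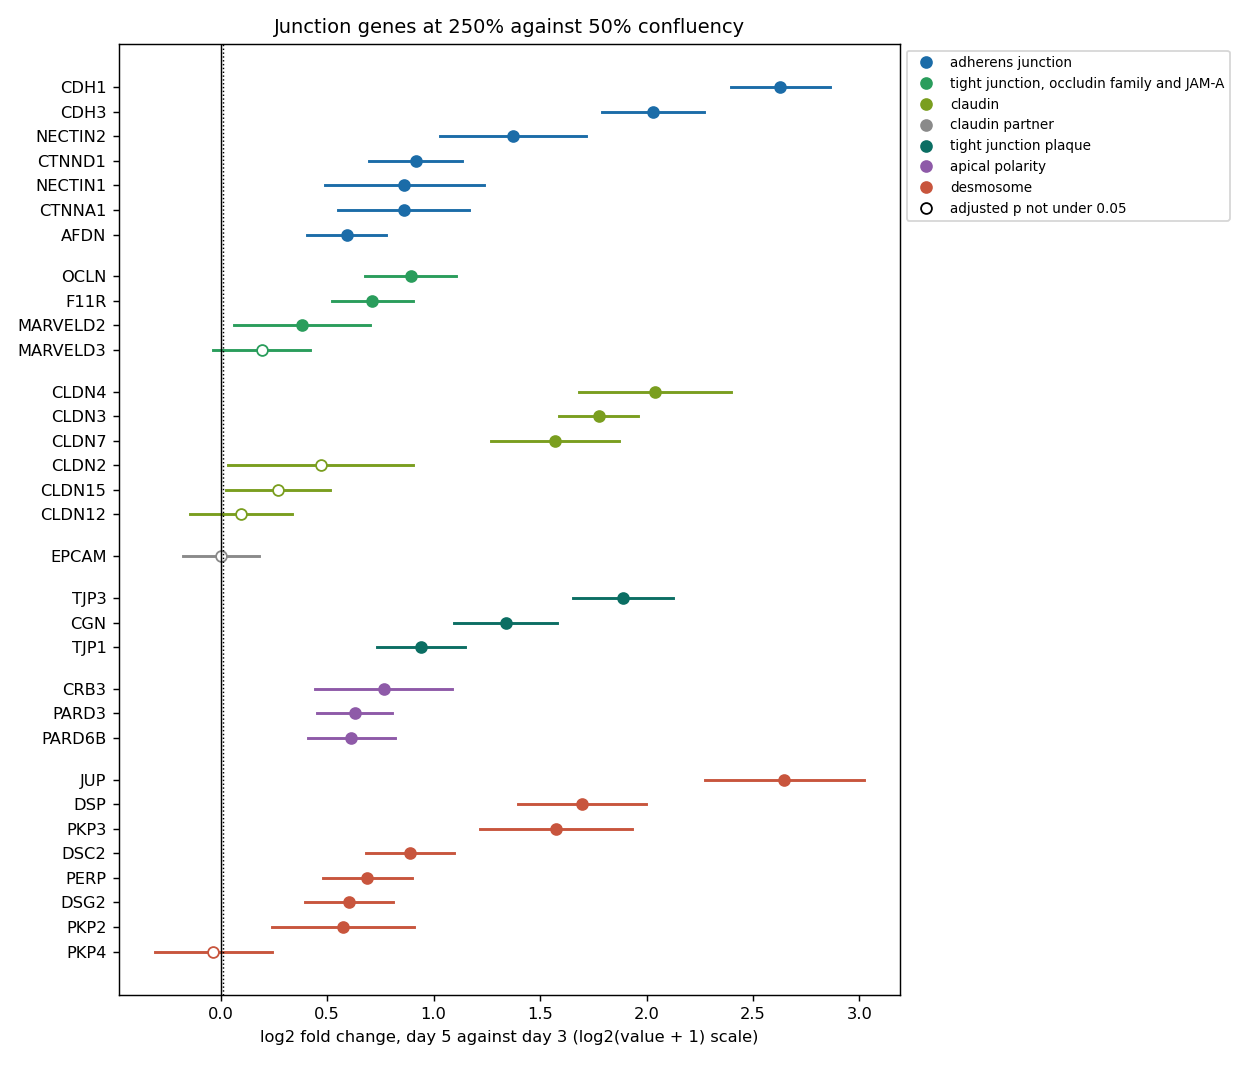
Log2 fold change of day 5 (250% confluency) against day 3 (50% confluency) on the log2(value + 1) scale for the 32 junction genes tested, grouped and coloured by junction type, with 3 libraries a day. Points are limma estimates, bars their 95% confidence intervals, open circles genes with an adjusted p not under 0.05, the solid line no change and the dotted line the median of all genes tested at 0.01. CDH1 (2.63) and JUP (2.65) lie farthest to the right, and EPCAM, CLDN12 and PKP4 lie nearest to 0.

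E-box sequences were read from 250 bases before the annotated start of each member gene, since the repressors ZEB1 and ZEB2 bind the letters CAGGTG, or CACCTG on the other strand. Starts were those of RefSeq. Promoters of 23 of the 34 members were matched by symbol in RefSeq sequences of GRCh38.p14. The windows of AFDN, CRB3 and DSP are shown because they hold the most matches in the adherens junction, polarity and desmosome groups, DSP as many as DSG2. The window of JUP is shown because JUP rose most of all members, and it holds no match. Each is written 5′ to 3′ on the strand of the gene, in lower case with matches in capitals, and the last base lies directly before the start. All 4 windows lie wholly or in part within the longer gene models of GENCODE 44.
AFDN (chr6:167827385-167827634, plus strand): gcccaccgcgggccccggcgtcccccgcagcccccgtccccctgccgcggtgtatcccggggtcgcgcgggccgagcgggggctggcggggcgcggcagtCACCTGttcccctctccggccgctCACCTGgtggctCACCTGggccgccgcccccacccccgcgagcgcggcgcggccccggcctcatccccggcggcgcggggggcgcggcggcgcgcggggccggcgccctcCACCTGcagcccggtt
CRB3 (chr19:6464021-6464270, plus strand): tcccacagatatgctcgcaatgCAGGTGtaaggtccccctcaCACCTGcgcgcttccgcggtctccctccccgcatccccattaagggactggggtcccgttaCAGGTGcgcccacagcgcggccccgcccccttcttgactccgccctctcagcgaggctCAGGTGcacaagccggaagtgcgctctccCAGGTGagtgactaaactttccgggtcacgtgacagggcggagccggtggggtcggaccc
DSP (chr6:7541421-7541670, plus strand): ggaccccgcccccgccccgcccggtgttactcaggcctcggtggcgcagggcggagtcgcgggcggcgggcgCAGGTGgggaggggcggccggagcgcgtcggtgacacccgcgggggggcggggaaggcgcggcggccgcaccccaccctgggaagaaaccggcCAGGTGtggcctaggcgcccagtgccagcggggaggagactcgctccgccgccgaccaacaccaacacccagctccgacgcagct
JUP (chr17:41786712-41786961, minus strand): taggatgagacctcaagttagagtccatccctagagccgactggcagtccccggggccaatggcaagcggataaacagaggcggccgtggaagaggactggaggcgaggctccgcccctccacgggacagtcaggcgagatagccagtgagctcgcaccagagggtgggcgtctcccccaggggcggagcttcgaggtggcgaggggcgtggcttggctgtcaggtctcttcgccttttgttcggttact
CRB3 carried 5 matches, which begin 228, 208, 147, 89 and 60 bases before the start. AFDN carried 4, beginning 150, 126, 114 and 16 bases before it, and DSP 2, at 178 and 85 bases. The window of DSG2 also held 2, and those of DSC2, TJP1 and OCLN 1 each. At least 1 match was thus present in 7 of 23 member promoters (30.4%), against 17.5% of 27305 promoters of all genes in the same table, and at least 2 in 4 of 23 (17.4%) against 2.55%. The 7 members with a match were all called higher, with log2 fold changes of 0.59 (AFDN) to 1.70 (DSP) and a median of 0.89. Of the 14 tested members with no match, 10 were called higher, with log2 fold changes from -0.03 (PKP4) to 2.65 (JUP) and a median of 1.10. Beside these counts, 26 of all 32 tested members and 29.3% of all genes tested were called higher. The share called higher among all genes with a match was not counted, and a link between matches and the rise was not tested. A match is a description of the letters and not a measured binding site. The promoters of CDH1, CDH3, CTNND1, EPCAM, F11R, MARVELD3, NECTIN1, PARD3, PARD6B, PKP2 and PKP3 were not found in the table.

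Among adherens junction genes, both cadherins rose more than the catenins and nectins did. CDH1 encodes E-cadherin, the calcium-dependent adhesion receptor of epithelial cells (ENSG00000039068, chr16:68737292-68835537 on hg38, plus strand). Its normalised read counts were 572, 669 and 672 in day 3 libraries 1 to 3 and 3787, 4024 and 4009 in day 5 libraries 1 to 3. Every day 5 library was above every day 3 library, with a ratio of means of 6.18 and a log2 fold change of 2.63 (SE 0.09, limma adjusted p = 0.0001). CDH3, which encodes P-cadherin, lies beside CDH1 on the same strand (chr16:68636189-68727468), 9823 bases upstream with no other protein-coding gene between. CDH3 values were 1288, 1474 and 1578 on day 3 and 5781, 6029.9 and 5872 on day 5, a log2 fold change of 2.03 (SE 0.10, limma adjusted p = 0.000146) with no overlap of the days. Per kilobase of the longest transcript, CDH3 remained the more abundant of the pair, but its ratio to CDH1 went from 2.45 ± 0.079 on day 3 to 1.62 ± 0.034 on day 5 (SD, n = 3), and the day 5 ratios were all below those of day 3.

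The catenins among the members rose less than 2-fold. CTNNA1, α-catenin, which couples the cadherin complex to actin, had values of 7138, 8285 and 9712 on day 3 and 14661, 15183 and 15390.4 on day 5. That is a rise of 0.86 log2 units (SE 0.13, limma adjusted p = 0.00191), with the days apart. CTNND1, p120-catenin, which binds cadherins near the membrane and keeps them at the surface, stood at 7313 ± 624 on day 3 and 13762 ± 189 on day 5 (SD, n = 3 each). The CTNND1 locus overlaps other protein-coding gene models on its strand, of which the measured one had means of 38.6 on day 3 and 53.1 on day 5. CTNNB1, β-catenin, is not a member but binds the same cadherin tail, and its log2 fold change was -0.27 (SE 0.09, limma adjusted p = 0.0392). Its direction was the same under all 13 alternatives, with a log2 fold change between -0.37 and -0.20, and edgeR (adjusted p = 0.00207) and DESeq2 (0.00184) also called it lower. The limma call was lost with no filter (adjusted p = 0.167) and without day 3 replicate 2 or 3 or any 1 day 5 library (0.0555 to 0.11).

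Nectins are immunoglobulin-like adhesion molecules that afadin links to actin. NECTIN2 values were 653, 781 and 929.9 on day 3 and 1954, 2004 and 2107 on day 5, and its log2 fold change of 1.37 (SE 0.14, limma adjusted p = 0.000548) was the third of the group after both cadherins. NECTIN1 rose by 0.86 log2 units (SE 0.15, limma adjusted p = 0.00406), from means of 651 on day 3 to 1173 on day 5. AFDN, afadin, had the smallest rise of the 7, 0.59 log2 units (SE 0.08, limma adjusted p = 0.00114), with day 3 libraries between 3076 and 3310 and day 5 libraries between 4612 and 4935. None of the 7 adherens junction genes had overlapping days.

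**Figure D2:**
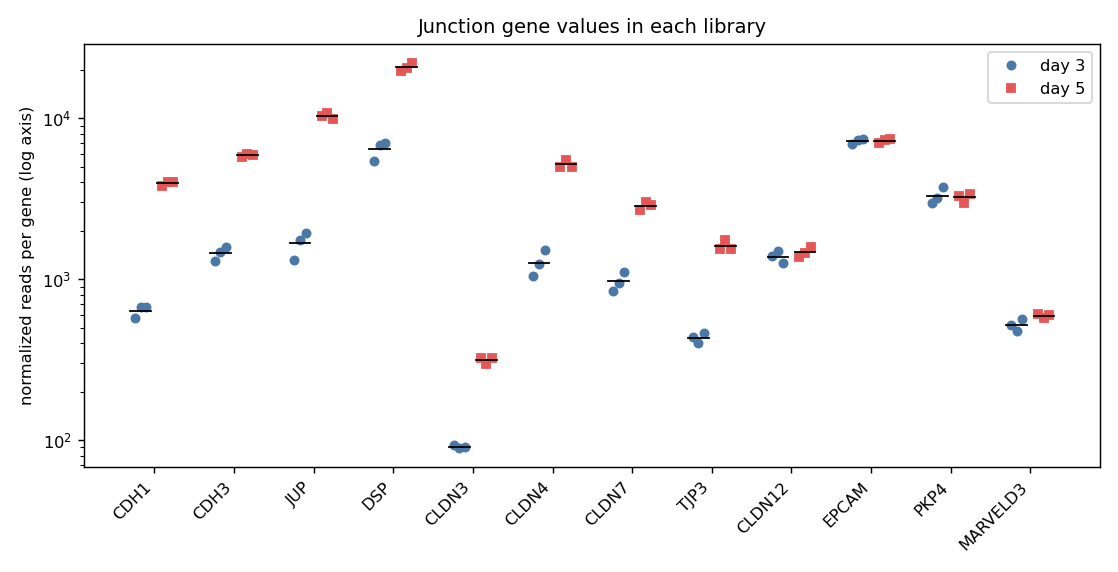
Deposited normalized read counts (log axis) of 12 junction genes in each of the 6 libraries, with day 3 circles and day 5 squares side by side, 1 symbol per library and a black line at each mean of 3. Day 5 points of CDH1 (3787 to 4024) lie above its day 3 points (572 to 672), while those of EPCAM (7048 to 7389) lie within its day 3 range (6932 to 7403).

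The occludin family and JAM-A rose modestly or were not called. OCLN encodes occludin, a tetraspan protein of the tight junction strand, and its values were 974, 959 and 967 on day 3 and 1641, 1929 and 1828 on day 5. The rise was 0.89 log2 units (SE 0.09, limma adjusted p = 0.000489), with a day 3 spread of 7.15 (SD) around 967. F11R encodes JAM-A, an immunoglobulin-like protein that helps to place the Par complex, and it rose by 0.71 log2 units (SE 0.08, limma adjusted p = 0.000698) from means of 1243 on day 3 to 2035 on day 5. A small protein-coding model that overlaps F11R on its strand had means of 15.9 and 24.4. MARVELD2, tricellulin, which sits where 3 cells meet, had values of 806, 1003 and 1114 on day 3 and 1257, 1281 and 1238 on day 5. Its log2 fold change of 0.38 (SE 0.13, limma adjusted p = 0.048) lies at the threshold and was no longer past it with median centring (limma adjusted p = 0.0585) or without any one of 5 of the 6 libraries (0.0601 to 0.114). MARVELD3, a related tetraspan protein, differed by 0.19 log2 units (SE 0.09, limma adjusted p = 0.124), with a 95% interval of -0.03 to 0.42, although its day 5 values (574 to 608) were all above its day 3 values (475 to 568). It passed with library totals (limma adjusted p = 0.0307) and without day 3 replicate 3 (0.0421). MARVELD2 and OCLN are neighbours on chromosome 5, 47961 bases apart with no protein-coding gene between.

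Claudins split into 3 that rose at least 2-fold and 3 that did not pass the test. CLDN4, a barrier-forming claudin (ENSG00000189143, chr7:73799542-73832690 on hg38, plus strand), had values of 1051, 1241 and 1508 on day 3 and 4963, 5514 and 4995 on day 5. It rose by 2.04 log2 units (SE 0.15, limma adjusted p = 0.000235), and the lowest day 5 library was above the highest day 3 library. CLDN3, a barrier-forming claudin whose gene lies 29271 bases from CLDN4 on the other strand, held far fewer reads, with values of 93.1, 89.6 and 90.7 on day 3 and 324, 297 and 323 on day 5. Its rise of 1.78 log2 units (SE 0.08, limma adjusted p = 0.000128) had the smallest standard error of the claudins. CLDN7, which is known to bind EPCAM, went from 841, 951 and 1116 to 2704, 3004 and 2879.7, a rise of 1.57 log2 units (SE 0.12, limma adjusted p = 0.000283). Its locus overlaps another protein-coding model on the same strand that was not analysed here.

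CLDN2 and CLDN15 form cation-permeable pores, and neither was called. CLDN2 was close to the limit of detection, with 7 to 18 reads per library, values of 7.90, 11.1 and 9.92 on day 3 and 10.8, 15.0 and 15.5 on day 5, and overlapping days. Its log2 fold change was 0.47 (SE 0.18, limma adjusted p = 0.0645), which passed with library totals (limma adjusted p = 0.0395) and without day 5 replicate 1 (0.0238). CLDN15 values were 339.8, 311 and 281 on day 3 and 397, 369 and 355 on day 5, a difference of 0.27 log2 units (SE 0.10, limma adjusted p = 0.0624) that passed without day 3 replicate 1 (limma adjusted p = 0.0367). CLDN12, a claudin linked to calcium permeability, had values of 1386, 1491 and 1269 on day 3 and 1381, 1461 and 1579 on day 5, which overlap. The 95% interval of its log2 fold change of 0.09 was -0.15 to 0.33 (limma adjusted p = 0.447). Its locus overlaps GTPBP10 and CDK14 on the same strand, whose means went from 2019 to 1154 and from 667 to 508, and how reads in the shared stretch were assigned was not tested. CLDN1, the claudin of the skin barrier, held 1 to 4 reads per library and could not be tested, so a difference was not detectable at this depth.

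Added together per kilobase of longest transcript, the 7 claudins went from 1417 ± 96.7 on day 3 to 3568 ± 139 on day 5 (SD, n = 3), a ratio of 2.52. The share of CLDN4 in that sum was 19.2%, 20.8% and 24.1% on day 3 and 34.8%, 35.7% and 33.6% on day 5. CLDN7 made up 35.5 ± 2.73% on day 3 and 41.7 ± 0.623% on day 5, and CLDN3 5.07 ± 0.435% and 6.94 ± 0.587%. For all 3 of these the day 5 shares were above those of day 3. CLDN12 fell by share from 27.5 ± 3.34% to 11.6 ± 0.732% and CLDN15 from 10.4 ± 1.70% to 4.92 ± 0.439%, with the days apart, while their own values were not called as changed. The shares depend on the transcript length used, and with the summed length of all exons CLDN12 was at 19.8% on day 3 and 7.72% on day 5.

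**Figure D3:**
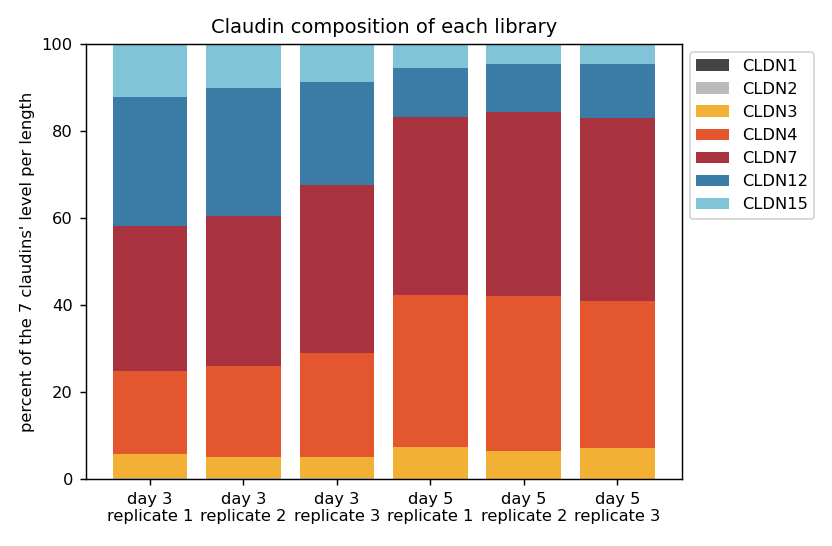
Share of each claudin in the summed level per kilobase of the 7 claudins (percent), as 1 stacked bar per library from 0 to 100, with day 3 libraries on the left and day 5 libraries on the right. CLDN4 takes 19.2% to 24.1% on day 3 and 33.6% to 35.7% on day 5, and CLDN12 goes from 23.6% to 29.6% down to 11.1% to 12.4%.

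EPCAM, an epithelial adhesion molecule that binds CLDN7 and keeps it from breakdown, had the highest level per kilobase of all 34 genes on both days, at 4672 on day 3 and 4678 on day 5. Its normalised read counts of 6932, 7346 and 7403 on day 3 and 7048, 7271 and 7389 on day 5 overlap. The log2 fold change was 0.00 (SE 0.07, limma adjusted p = 0.982) with a 95% interval of -0.18 to 0.18, so a change as large as the members' median lies outside the interval.

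Transcripts of the 3 tight junction plaque members rose. TJP3 encodes ZO-3, a scaffold that binds claudins on the cytoplasmic side, and its values were 436, 400.0 and 461 on day 3 and 1543, 1744 and 1530.5 on day 5, a rise of 1.89 log2 units (SE 0.10, limma adjusted p = 0.000156). CGN encodes cingulin, which couples the plaque to actomyosin, and went from 473, 542 and 441 to 1201, 1224 and 1249.8, a rise of 1.34 log2 units (SE 0.10, limma adjusted p = 0.000246). TJP1, the related scaffold ZO-1, was much the most abundant of the 3 by level per kilobase (703 on day 3 and 1349 on day 5) and rose by 0.94 log2 units (SE 0.08, limma adjusted p = 0.00038). In each of the 3 genes the lowest day 5 library was above the highest day 3 library. Levels per kilobase of TJP3 went from 141 to 522 and those of CGN from 95.2 to 240.1.

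The 3 polarity members rose by 0.61 to 0.76 log2 units. CRB3, the Crumbs protein of the apical membrane, had values of 199, 240.5 and 276 on day 3 and 406, 387 and 416 on day 5, a rise of 0.76 log2 units (SE 0.13, limma adjusted p = 0.00372). PARD3, which with PARD6B and atypical protein kinase C forms the Par complex, rose by 0.63 log2 units (SE 0.07, limma adjusted p = 0.000797) from means of 2369 on day 3 to 3664 on day 5. PARD6B rose by 0.61 log2 units (SE 0.08, limma adjusted p = 0.0015) from means of 1106 on day 3 to 1691 on day 5. None of the 3 reached 2-fold, and the days were apart in all of them.

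Within the desmosome, plakoglobin, desmoplakin and plakophilin 3 rose most and the desmosomal cadherins less. JUP encodes plakoglobin, an armadillo protein that binds desmosomal cadherins and also the tail of E-cadherin (ENSG00000173801, chr17:41754604-41786931 on hg38, minus strand). It had values of 1320.5, 1749 and 1935 on day 3 and 10318, 10797 and 9894 on day 5, with a ratio of means of 6.20 and a log2 fold change of 2.65 (SE 0.15, limma adjusted p = 0.00018). The day 5 libraries lay far above those of day 3. Per kilobase, JUP moved from 10th to 3rd of the 34 genes. The ratio of JUP to CTNNB1, its close relative, was examined after the values were seen, and went from 0.152 ± 0.0193 on day 3 to 1.14 ± 0.072 on day 5 per kilobase of longest transcript (SD, n = 3), with the days apart. With the summed length of all exons in its place the ratio was 0.259 on day 3 and 1.95 on day 5.

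DSP encodes desmoplakin, which anchors keratin filaments to the desmosome, and its values were 5434, 6821 and 7048 on day 3 and 19760.5, 20579.6 and 21964 on day 5. The rise was 1.70 log2 units (SE 0.12, limma adjusted p = 0.000235), and the days did not overlap. PKP3, a plakophilin that binds desmoplakin and desmosomal cadherins, went from 631, 747 and 924 to 2294, 2233 and 2257, a rise of 1.58 log2 units (SE 0.15, limma adjusted p = 0.000426). PKP2, the plakophilin of heart and simple epithelia, rose by 0.57 log2 units (SE 0.14, limma adjusted p = 0.0129) with values of 855, 932 and 1171 on day 3 and 1498, 1354 and 1517 on day 5. With no filter on low values the PKP2 call was lost (limma adjusted p = 0.0535). The ratio of PKP2 to PKP3 per kilobase fell from 0.833 ± 0.0369 to 0.416 ± 0.0218 (SD, n = 3), without overlap of the days, and with summed exon lengths from 0.476 to 0.237.

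DSG2 and DSC2 are the desmosomal cadherins of simple epithelia. DSG2 rose by 0.60 log2 units (SE 0.08, limma adjusted p = 0.00166), from 8769, 9423 and 10073 on day 3 to 13813, 14768 and 14297 on day 5. DSC2 rose by 0.89 log2 units (SE 0.08, limma adjusted p = 0.000446), from 2141, 2329 and 2031 to 3877, 4050.3 and 4109. Per kilobase, DSC2 stood at 0.106 ± 0.0117 of DSG2 on day 3 and 0.129 ± 0.00302 on day 5 (SD, n = 3), with the day 5 ratios above. With summed exon lengths the ratio was 0.175 on day 3 and 0.213 on day 5. Their genes lie 395654 bases apart on chromosome 18, and the 4 desmosomal cadherin genes between them, DSC1, DSG1, DSG3 and DSG4, held at most 11 reads in any library.

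PERP, a tetraspan desmosome protein induced by p53 family factors, rose by 0.69 log2 units (SE 0.09, limma adjusted p = 0.00105) from means of 3683 on day 3 to 5932 on day 5. PKP4, also called p0071, an armadillo protein found at adherens junctions as well as desmosomes, had values of 2979.9, 3205 and 3733 on day 3 and 3273, 2979 and 3405 on day 5. These overlap, and the log2 fold change was -0.03 (SE 0.11, limma adjusted p = 0.811) with a 95% interval of -0.31 to 0.24. PKP1, the plakophilin of stratified epithelia, held 0 to 2 reads per library and could not be tested.

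**Figure D4:**
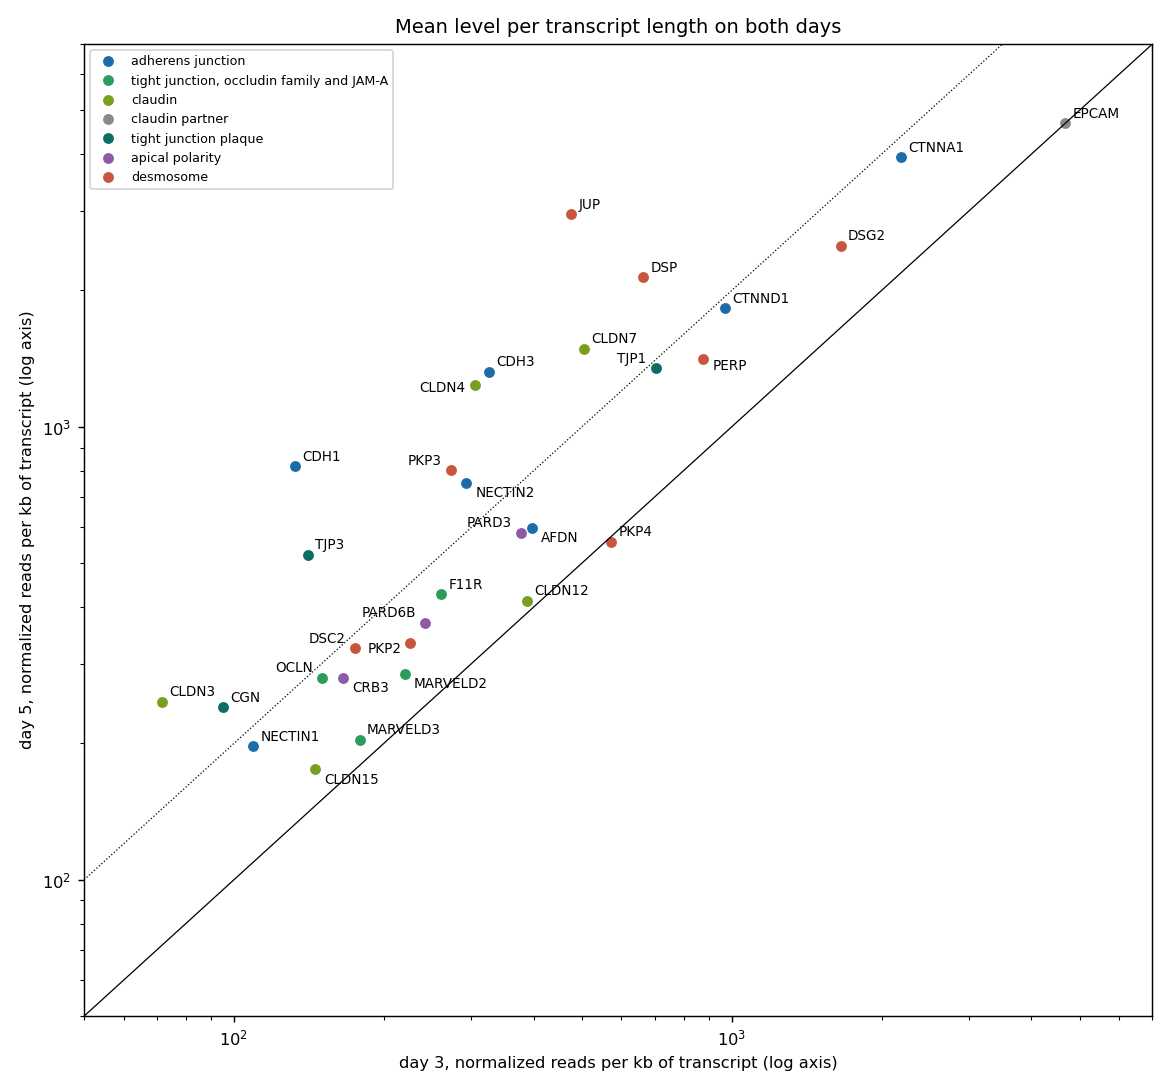
Mean level on day 3 (horizontal, log axis) against day 5 (vertical, log axis) in normalized reads per kilobase of longest transcript for 31 tested junction genes, coloured by junction type. CLDN2, at 3.26 and 4.66, lies below the plotted range. The solid line marks equal levels and the dotted line a 2-fold rise, and EPCAM (4672 and 4678) sits on the solid line while JUP (476 and 2949) sits above the dotted line.

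Levels of different genes were set side by side per kilobase of longest transcript, and whether reads in introns were counted is not given in the sources used here. EPCAM, CTNNA1 and DSG2 were the 3 most abundant members on day 3, and EPCAM, CTNNA1 and JUP on day 5. CDH1 was 28th on day 3 and 12th on day 5, with levels of 132 and 819. PKP4 moved from 8th to 17th and CLDN12 from 12th to 20th without a called change of their own. The spread between libraries was larger on day 3 than on day 5 for 28 members. Their median coefficient of variation was 9.24% on day 3 and 3.54% on day 5. The spread over all genes tested was not computed, so nothing particular to the members is drawn from it. On day 3, replicate 1 was the lowest library for 23 of the 32 tested members and replicate 3 the highest for 21. The summed normalised values of all genes rose in the same order, at 3.40e+07, 3.50e+07 and 3.89e+07 in day 3 replicates 1 to 3. This order was not counted over all genes tested and is not read as a trait of the members. The fold changes of 24 of the 26 called members stayed past the threshold under 13 alternatives, which include leaving out each of these libraries.

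Other genes of the same structures were counted from lists of related genes, also chosen with earlier results of these data known. Of 67 tested genes in these 6 lists, 43 rose and 8 fell, counts that include GRHL3 and ZEB2, which are treated below as description only. The median log2 fold change was 0.69, and of all genes tested 29.3% rose and 27.6% fell. These shares over all genes are the background for each count that follows, and nothing is drawn from a count near them. Among 8 other adherens junction genes tested, 5 rose and 3 fell, a number of falls near that background. VCL, vinculin, which binds α-catenin under tension, rose by 1.49 log2 units (SE 0.11, limma adjusted p = 0.000249), NECTIN4 rose by 1.05 log2 units (SE 0.24, limma adjusted p = 0.0105) and ARVCF, a relative of p120-catenin, by 0.73 log2 units (SE 0.08, limma adjusted p = 0.000748). Those that fell were CTNNB1, given above, NECTIN3 with -0.54 log2 units (SE 0.08, limma adjusted p = 0.00168) and the cadherin-associated protein VEZT, vezatin, with -0.39 log2 units (SE 0.08, limma adjusted p = 0.00781). CDH2, N-cadherin, held 0 to 5 reads per library and was not tested.

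Of 18 other tight junction genes tested, 13 rose and 0 fell by limma, with 0 lower also at an unadjusted p under 0.05, by edgeR and by DESeq2. LSR and ILDR1 encode angulins, which recruit tricellulin to sites where 3 cells meet. LSR rose by 1.97 log2 units (SE 0.14, limma adjusted p = 0.000232) and ILDR1 by 1.88 log2 units (SE 0.21, limma adjusted p = 0.000707). Among 13 other polarity genes, 5 rose and 2 fell, beside the background of 29.3% and 27.6%. LLGL1 and LLGL2, of the basolateral Lgl family, rose by 1.10 log2 units (SE 0.13, limma adjusted p = 0.000853) and 0.85 log2 units (SE 0.09, limma adjusted p = 0.000546), and their partner SCRIB rose by 1.01 log2 units (SE 0.13, limma adjusted p = 0.00114). CDC42, the GTPase that activates the Par complex, fell with -0.49 log2 units (SE 0.08, limma adjusted p = 0.0037), as did the Crumbs complex scaffold LIN7C with -0.52 log2 units (SE 0.12, limma adjusted p = 0.0118).

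Of 7 other desmosome and epithelial keratin genes tested, 6 rose. PPL and EVPL encode periplakin and envoplakin, relatives of desmoplakin, and rose by 2.35 log2 units (SE 0.12, limma adjusted p = 0.000157) and 1.18 log2 units (SE 0.08, limma adjusted p = 0.000205). KRT19, a keratin of simple epithelia, rose by 1.98 log2 units (SE 0.15, limma adjusted p = 0.000284). The gene not called was KRT20, a keratin of intestinal epithelium, with values of 27.2, 27.2 and 38.3 on day 3 and 18.4, 13.9 and 25.9 on day 5 and a log2 fold change of -0.67 (SE 0.25, limma adjusted p = 0.0613). With median centring, with the replicate block and without day 5 replicate 3, 1 gene of this list was called lower. Among 6 gap junction connexins tested, 5 rose, among them GJA3 by 1.36 log2 units (SE 0.09, limma adjusted p = 0.000222). Of 15 tested transcription and splicing factors that act on epithelial genes, 9 rose and 3 fell, beside 29.3% and 27.6% of all genes tested. The 9 include GRHL3 and the 3 include ZEB2, both treated below as description only. ELF3 and KLF4, factors of epithelial differentiation, rose by 2.50 log2 units (SE 0.09, limma adjusted p = 0.0001) and 2.16 log2 units (SE 0.12, limma adjusted p = 0.000167). ZEB1, an E-box repressor of CDH1, fell with -0.78 log2 units (SE 0.09, limma adjusted p = 0.00077), from means of 645 on day 3 to 375 on day 5. SNAI1 and TWIST1 in the same list did not fall. Their log2 fold changes were 0.41 (SE 0.17, limma adjusted p = 0.0834) and 0.60 (SE 0.26, limma adjusted p = 0.0954), and neither was called. SNAI2 held 0 to 11 reads per library and was not tested. GRHL3 and ZEB2 were called, but each reached the minimum value of 10 only on the day on which it was higher, so their values are given as a description. GRHL3, a factor of epithelial differentiation, had values of 3.51, 4.95 and 9.92 on day 3 and 101, 121 and 76.6 on day 5. ZEB2, the relative of ZEB1, had values of 15.8, 16.7 and 12.8 on day 3 and 6.51, 2.14 and 6.21 on day 5, with 2 to 27 reads per library. Without any 1 day 3 library, ZEB2 was not tested and 2 genes of the list were called lower. OVOL2, a repressor of ZEB1, also fell with -0.89 log2 units (SE 0.19, limma adjusted p = 0.00824), at 11 to 41 reads per library. DESeq2 did not make this call (adjusted p = 0.0917). OVOL1 in the same list went the other way, from means of 128 on day 3 to 428 on day 5. Its rise was 1.76 log2 units (SE 0.17, limma adjusted p = 0.000456).

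**Figure D5:**
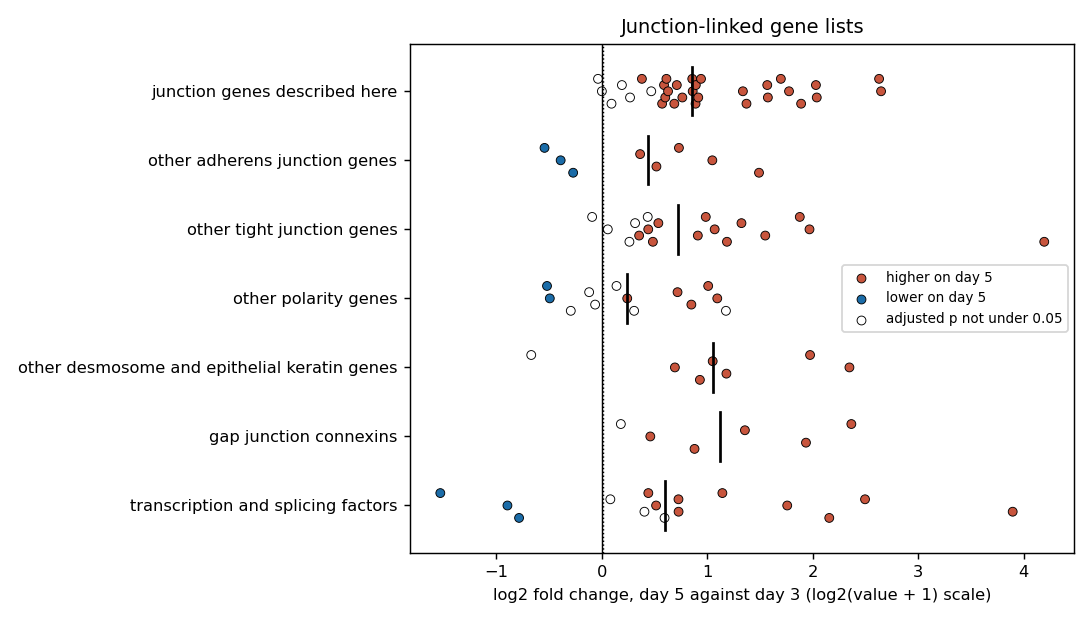
Log2 fold change of day 5 against day 3 (log2(value + 1) scale, limma, 3 libraries a day) for the tested junction genes in the top row and the tested genes of 6 related lists below, with 1 point per gene, a black tick at each row's median and a dotted line at the median of all genes. Filled points passed an adjusted p of 0.05, red for higher and blue for lower on day 5, and the junction genes lie between -0.03 and 2.65. GRHL3 and ZEB2, the outermost points of the bottom row, reached the minimum value only on the day on which they were higher.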

How the data were processed

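Whole transcriptome RNA was depleted of ribosomal RNA and made into strand-specific libraries with molecular identifiers. The authors mapped reads to hg38 and annotated genes in CLC Genomics Workbench, and set TMM as the normalisation of their differential expression test. Their deposited table gives a normalised signal per gene and library, and also their own fold changes and p-values, which were not used. Whether that signal was scaled by TMM was not tested. Each deposited value was a whole multiple of 1 read (100% of values within 0.01), so reads were recovered.

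The members, the related lists and the genes named from them (CTNNB1, CDH2, VIM and up to 3 called genes with the largest rise and fall per list) were chosen with earlier results of these data known. Genes reaching a value of 10 in 3 or more of the 6 libraries were tested with limma 3.58.1 in R 4.3.3 on log2(value + 1), two-sided, without a block, with Benjamini-Hochberg adjustment over all 20129 genes and a threshold of 0.05. In simulated reads where only 200 of 20129 genes were given a 2-fold change, limma recovered 116 of them (58%) and made 11 false calls. In the real comparison 56.9% of genes were called, and the adjustment depends on that share. The 58% therefore does not measure how many 2-fold changes were found here. On recovered reads, edgeR 4.0.16 called 12280 genes and DESeq2 1.42.0 called 11110. Other alternatives were library totals, median centring, no filter, a pseudocount of 0.1, a replicate block, a 2-fold minimum, leaving out each library, and summed exon lengths.

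Symbols were in the table for 24974 genes, and 10653 more were added by gene identifier. Loci and transcript lengths came from GENCODE 44. Counts and ratios were computed with pandas 2.3.3 and numpy 2.4.6 in Python 3.11.15, and plots were made with matplotlib 3.10.9. Same-numbered libraries of both days did not deviate together (r of -0.011, 0.034 and 0.023 over genes). CTNNA2, CLDN8, CLDN16, MPDZ, GJA5, LUM and PECAM1 were not analysed here, nor were the small RNA tables. Some genes that the naming rule selects are not reported here.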

Additional observations from a re-analysis of the deposited data

How the results depend on the processing

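Of the 26 junction genes called higher, 24 stayed past the threshold under all 13 alternatives other than the 2-fold minimum, and the exceptions were MARVELD2 and PKP2. The number called higher was 28 with library totals, 25 with median centring, 24 with no filter, 26 with a pseudocount of 0.1, edgeR and DESeq2, and 25 to 27 when 1 library was left out, and it was 0 for lower in each of them. With a 2-fold minimum, 3589 genes were called (2059 higher and 1530 lower), and of the members 11, with 3 in the adherens junction, 0 in the occludin family and JAM-A, 0 in apical polarity and 3 in the desmosome. Leaving out 1 library gave 9780 to 11300 genes called, with 4949 to 6105 higher and 4666 to 5195 lower. Median centring moved the median of all genes from 0.01 to -0.09. Differences near 0 changed sign: CLDN12 was -0.00692 and EPCAM -0.0981 with median centring, EPCAM -0.00905 with edgeR and -0.0276 to 0.021 without 1 library, PKP4 0.0324 with library totals and -0.106 to 0.0565 without 1 library, and VIM -0.225 to 0.0464 without 1 library, above 0 without day 5 replicate 1. Same-numbered libraries of the 2 days did not deviate together, which does not show whether their cultures were grown together. With the replicate block, 10533 genes and 26 members were called, where MARVELD2 (limma adjusted p = 0.0738) and CTNNB1 (0.0725) were lost and CLDN2 (0.0202) gained. The call of VEZT (0.0566) and LIN7C (0.0539) was lost with no filter. CLDN1, PKP1 and CDH2 were limited by depth, at 0 to 5 reads per library.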
